A study of Notamacropus eugenii with 7 samples.

Results

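The milk of day 75 of lactation and that of day 120 were compared in the tammar wallaby, a marsupial whose young is born very immature and completes most of its development on milk. Day 75 lies in phase 2A, when the young never lets go of its teat, and day 120 lies in phase 2B, when it releases the teat at times but stays in the pouch. All miRNAs listed in either milk were taken as members, which gave 86 of the 102 miRNAs listed in any of 7 small RNA profiles (5 of milk, 2 of maternal serum) and of 346 miRNA names in the table. The day 75 profile came from pooled milk of 5 lactating females and the day 120 profile from pooled milk of 4. The days are those of the sample labels, and the results text of the study names a slightly earlier day for each milk. No genotype or treatment that set the groups apart is named in the sources used here, and oxytocin was given to all females to let down the milk. Females were anaesthetised by injection or by inhalation and kept at Deakin University or at CSIRO. Which of these applied to each pool is not given in those sources. Whether a female gave milk to both pools is not given in the sources used here.

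Each milk profile is 1 pooled library and each serum profile 1 library, with no replicate of either. The differences therefore have no replicate check, no test was made and the spread between females is unknown. The study reports that the serum came from females that also gave milk. A value is a share, the percent of all annotated miRNA reads of a library, listed to 3 decimals. An empty entry is called absent, and an entry of 0 is called listed at 0 (below 0.0005%). The deposited shares come without read counts, and the read totals that the study reports were not used. No counting interval is therefore given for the shares. The listed shares summed to 99.3% at day 75 and 99.4% at day 120, within the 95.8% to 99.6% of the 7 profiles.

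miRNAs are short RNAs that guide the repression of messenger RNAs, chiefly through their seed, a few bases near the 5′ end, so that family members with 1 seed share many targets. In skim milk they are carried largely in small membrane vesicles, released by the epithelial cells that also make the milk proteins and fat. Marsupial milk changes its proteins, sugars and fat as the young grows. At the end of permanent attachment the study describes changes in the milk proteins and an otherwise similar composition. It places the change of sugars and fat in the last phase. A share cannot tell fewer vesicles of a kind from less of a miRNA in each, nor a loss of one miRNA from a gain of the others.

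The assay sequences shown here show what was amplified for 5 members that recur in the results, among them miR-141 and miR-92, which moved past 2-fold in opposite directions. Each line gives the forward primer used by the study to amplify the miRNA, in lower case and read 5′ to 3′, and then in capitals the last 6 bases of the miRNA as the reverse complement of its reverse transcription primer. The first bases of a forward primer can be an added tail and not part of the miRNA, and the shares come from sequencing and not from these assays.
miR-148: ccgggctcagtgcactacag and CTTTGT
miR-30a: ggcgcgtgtaaacatcctcga and TGGAAG
miR-92: gcgcttattgcacttgtcccg and GGCCTG
miR-22: ccaggcaagctgccagttg and AACTGC
miR-141: cgcgcctaacactgtctggta and AGATGC

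At the head of both profiles stood miR-191, a miRNA found in many epithelia, and miR-184, known from the epithelium of the cornea and skin. miR-191 held 28.0% of the reads at day 75 and 43.8% at day 120, a gain of 15.8 percentage points and 1.56-fold. miR-184 held 24.8% and then 8.56%, a loss in which its share fell by 16.3 points, or 2.90-fold. Their sum was 52.9% before and 52.4% after, while the ratio of miR-191 to miR-184 went from 1.13 to 5.12. They kept ranks 1 and 2, and the gain of one was close to the loss of the other in points. miR-191 was at 40.4% in the earlier day 35 milk, so its day 120 share lay nearer to that of day 35 than that of day 75 did, whereas miR-184 at day 120 was below both its day 35 share of 17.6% and its day 75 share.

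miR-375, known from pancreatic islets and other secretory cells, had the next gain in points. It held 2.63% at day 75 and 8.23% at day 120, 3.13-fold more, and passed from rank 7 to rank 4. In the day 120 milk it stood beside miR-148, which is also abundant in the milk of placental mammals: the ratio of miR-375 to miR-148 was 0.249 at day 75 and 0.989 at day 120. miR-148 itself kept rank 3 with 10.6% and 8.32%. miR-191 and miR-375 together made 80.1% of the 26.7 points gained by all miRNAs that were higher, and miR-184 made 61.1% of the 26.6 points lost by those that were lower. Most of the exchange between the milks thus lay in 3 of the 86 miRNAs.

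Further down, the leading miRNAs were mostly the same ones in a changed order. Of the 10 leading miRNAs, 8 were shared by both milks and 4 kept their rank (miR-191, miR-184, miR-148 and let-7f). The entry for miR-181c and miR-181a, which the table reports as 1, held 7.53% and 5.02%. These miRNAs are known for setting the sensitivity of T cell receptor signalling. The leading let-7 miRNAs, of a family that marks the maturing of tissues during development, were close to level, with let-7f at 6.45% and 5.37% and let-7a at 2.39% and 2.64%. miR-30a was level as well, at 3.46% and 3.36%. miR-141 (rank 9, to rank 14) and miR-204 (rank 10, to absent) left the leading 10, and miR-10b (rank 11 to 7) and miR-92 (rank 14 to 10) entered it.

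**Figure D1:**
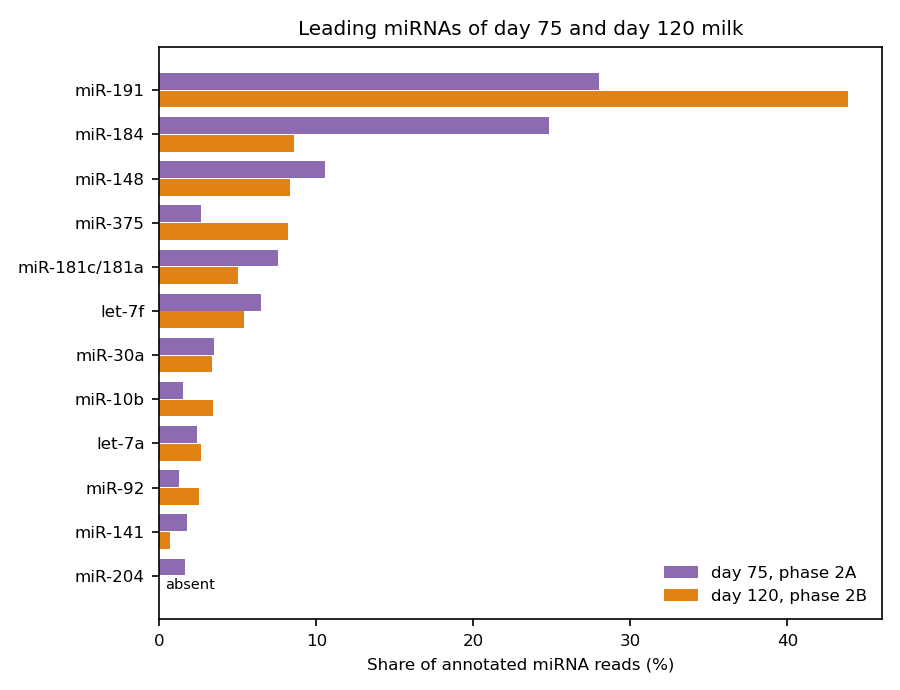
Horizontal bars give the share of annotated miRNA reads in percent for the 12 miRNAs that were among the leading 10 of either milk, with day 75 in purple and day 120 in orange, 1 pooled library each. miR-191 gained while miR-184 lost, miR-375 stood level with miR-148 at day 120, and miR-204 has no entry at day 120.

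The day 120 profile was the more concentrated in its first miRNA, and this rested on miR-191. The 10 leading miRNAs held 89.2% of the reads at day 75 and 91.2% at day 120. The effective number of miRNAs, which is the number of equally abundant miRNAs that would give the same evenness (from the Shannon entropy), was 9.69 and 8.65. When miR-191 was left out and the rest rescaled, the order turned, with 10.3 at day 75 and 13.9 at day 120. Leaving out both leaders gave 13.3 and 13.5. Without miR-191 the leading miRNA of day 75, miR-184, had 34.5% of the rest, against 15.2% for the leader of day 120.

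To describe the other members on 1 scale, the log2 ratio of day 120 over day 75 was taken after adding 0.001% to both shares, for the 55 miRNAs that reached 0.005% in at least 1 of the milks. At day 120, 15 of the 55 were at least 2-fold higher (27.3%), 15 were at least 2-fold lower (27.3%) and 25 were within 2-fold. Those 2 shares are the background for every count of a family given here. On the deposited shares alone, all 30 also passed at the least favourable values that rounding to 3 decimals allows. With 0.001% added, miR-125b alone fell short, at 1.86-fold. Of the 45 miRNAs with at least 0.005% in both milks, 12 were higher and 9 lower. The ratios were wider among the scarce miRNAs: the median absolute log2 ratio was 0.65 for the 15 miRNAs of at least 1% in the higher milk, 0.94 for the 17 from 0.1% to 1%, 1.39 for the 12 from 0.02% to 0.1%, and 2.17 for the 11 below that.

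**Figure D2:**
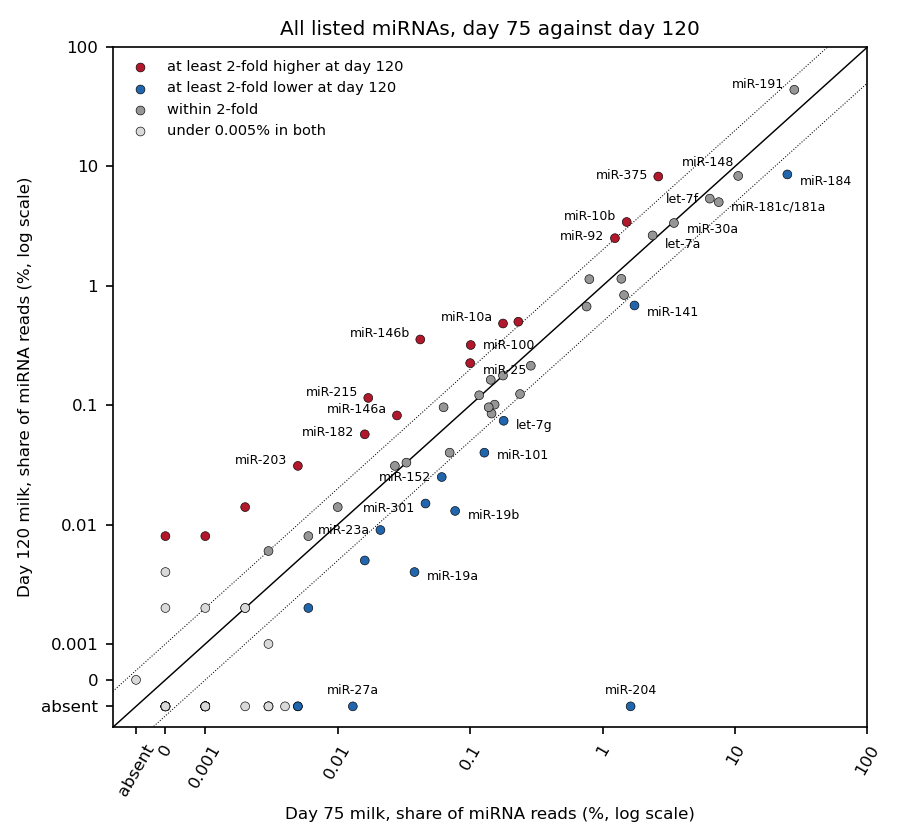
Each point is 1 of the 86 miRNAs, with its share of miRNA reads at day 75 (x axis, percent, log scale) and at day 120 (y axis, percent, log scale), and with entries of 0 and absent entries placed at marked positions below 0.001%. Red and blue points lie at or beyond 2-fold (dotted lines), 15 on each side, and the row of points at the foot holds the 28 miRNAs absent at day 120, with miR-204 far to the right.

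Of the 15 higher miRNAs, 3 held at least 1% of the day 120 milk and 6 held from 0.1% to 1%. Another 3 held from 0.02% to 0.1%, and 3 held less. miR-146b had the largest ratio among miRNAs of at least 0.02%. Its share was 0.042% at day 75 and 0.355% at day 120, 8.45-fold more, and it moved from rank 36 to rank 18. Its relative miR-146a was at 0.028% and 0.082%, 2.93-fold more. Both are known to be induced by NF-kappaB and to damp signalling from Toll-like receptors. The ratio of miR-146b to miR-146a was 1.5 at day 75, 4.33 at day 120 and 0.251 in the serum of day 120, so the pair did not keep 1 proportion. In the later milks miR-146b was lower again, at 0.12% on day 175 and 0.13% on day 250, which left day 120 as its highest of the 5 milk profiles.

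miR-215, known from intestine and kidney, was at 0.017% and 0.115%, 6.76-fold more. miR-203, which restrains the growth of skin keratinocytes as they differentiate, was at 0.005% and 0.031%, and rounding places its ratio between 5.55 and 7. In the day 35 milk it also stood at 0.031%. miR-182 and miR-183 are made from 1 cluster with miR-96 and are known from sensory organs. miR-182 was at 0.016% and 0.057% and miR-183 at 0.002% and 0.014%, while miR-96 was listed at 0 in the first milk and had no entry in the second. miR-183 reached 0.005% only at day 120, so miR-182 alone of the cluster was measured at that level in both milks.

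The miR-10 group was the most abundant of the listed families in which all measured members were at least 2-fold higher. miR-10a and miR-10b lie within the Hox gene clusters and miR-100 is related to them. miR-10b held 1.52% at day 75 and 3.42% at day 120, 2.25-fold more. miR-10a was at 0.177% and 0.483%, and miR-100 at 0.101% and 0.319%. The sum of the 3 was 1.80% and 4.22%, and it was 76.8% in the serum of day 120. The ratio of miR-10b to miR-10a was 8.59, 7.08 and 9.60 in these 3 profiles, although the 2 differ little in sequence and the counting could have moved reads between them. In the other milks the sum of the 3 miRNAs was 3.37% on day 35, 4.76% on day 175 and 1.44% on day 250.

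The miR-17-92 and miR-25 group did not move as 1. miR-92 and miR-25, which share a seed, were higher: miR-92 at 1.24% and then 2.50%, and miR-25 at 0.1% and then 0.225%. miR-19a and miR-19b, which share another seed, were lower. miR-19a was at 0.038% and 0.004%, the largest ratio downwards of any miRNA with an entry in both milks (9.5-fold), and miR-19b was at 0.077% and 0.013% (5.92-fold). The ratio of miR-92 to miR-19b, which are made from 1 primary transcript in other mammals, was 16.1 at day 75 and 193 at day 120. It varied widely in the other milks too, at 39.7 on day 35, 5.27 on day 175 and 46.9 on day 250. The 2.02-fold difference of miR-92 lies just past the 2-fold limit and falls short of it when ratios are centred on the mean log ratio of the 45 miRNAs (a shift of 0.08).

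The miR-200 family, which holds cells in the epithelial state by repressing ZEB1 and ZEB2, was also split. miR-141 was lower, at 1.74% and 0.684% (2.55-fold), with a log2 ratio of -1.35 that becomes -0.99, just short of 2-fold, without miR-191. miR-429 was higher, at 0.231% and 0.5%. miR-200b was at 0.138% and 0.096%, and miR-200c at 0.033% in both. The ratio of miR-141 to miR-429 went from 7.54 to 1.37, and it was 0.864 on day 35, 3.61 on day 175 and 20.3 on day 250. Summed, the 4 measured members held 2.14% and 1.31% of the milk reads against 0.009% in the serum of day 120, so this family was present in both milks and nearly missing in serum. miR-203, an epithelial miRNA outside the family, was at 0.045% in that serum, above both its milk shares. Of the 6 epithelial miRNAs measured when miR-203 and miR-205a are added, 2 were higher and 2 lower (2 and 1 of the 5 that reached 0.005% in both milks).

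**Figure D3:**
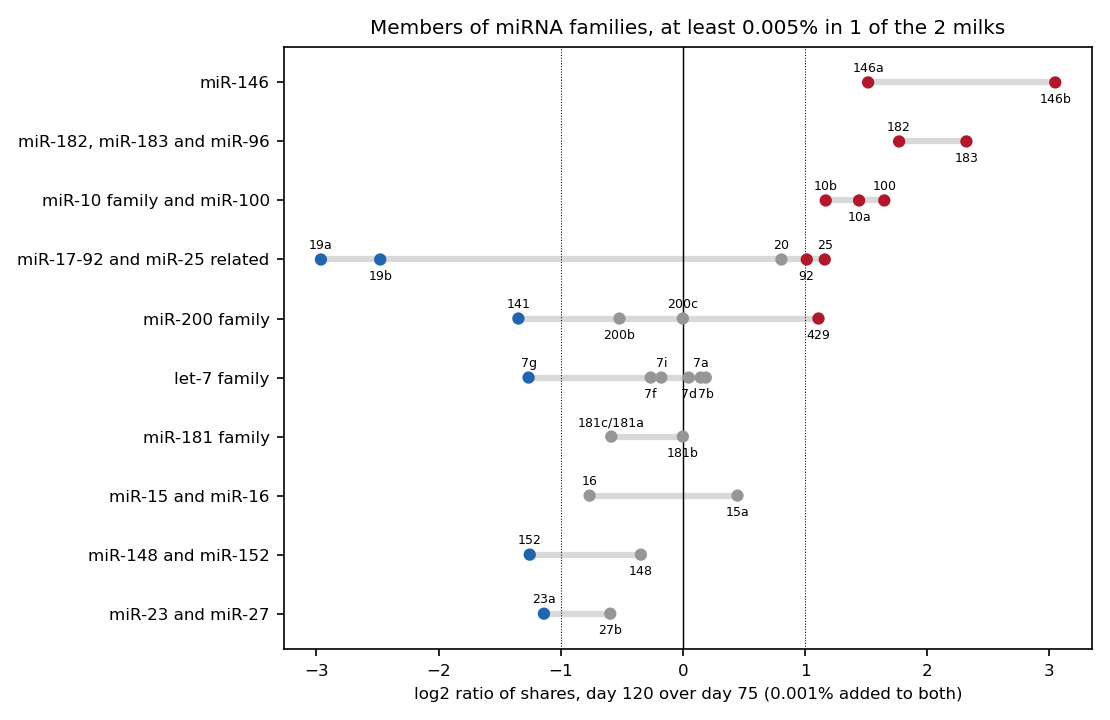
Points give the log2 ratio of shares, day 120 over day 75 with 0.001% added to both, for the members of 10 miRNA families that reached 0.005% in 1 of the milks and have a day 120 entry, with dotted lines at 2-fold. All members shown of the miR-146, miR-182 and miR-10 rows lie beyond 2-fold to the right, while the miR-17-92 and miR-200 rows reach beyond 2-fold on both sides.

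The let-7 family summed to 10.03% and 9.04%, and of its 6 measured members only let-7g passed 2-fold, at 0.179% and 0.074%. The other let-7 log2 ratios lay between -0.26 and 0.19. The let-7 miRNAs differ by few bases, so reads could have been shared among them. miR-148 and miR-152 share a seed, and the scarce member had the larger ratio, with miR-152 at 0.061% and 0.025%. let-7g, miR-152 and miR-23a fell short of 2-fold without miR-191, with log2 ratios of -0.91, -0.91 and -0.83. miR-23a was at 0.021% and 0.009%, and its neighbour in 1 cluster, miR-27a, at 0.013% and then absent, while miR-27b, of another cluster, was at 0.153% and 0.101%. miR-101, which represses the histone methyltransferase EZH2, was at 0.128% and 0.04%, and miR-301 at 0.046% and 0.015%. The lower side also held miR-340 at 0.016% and 0.005%, miR-125b at 0.006% and 0.002%, and miR-195 at 0.005% and then absent.

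Among miRNAs known as immune regulators, 6 of the 8 listed by name reached 0.005%, and 3 of these were at least 2-fold higher and none lower (2 and none of the 5 that reached it in both milks, where 12 of all 45 were higher). The 3 were miR-146a, miR-146b and miR-223, a miRNA of myeloid cells that was listed at 0 at day 75 and at 0.008% at day 120. miR-21, found at raised levels in inflamed tissue, was at 0.287% and 0.214%, and miR-181b at 0.177% in both. By sum the list was lower, at 8.07% and 5.85%, since miR-181c and miR-181a make most of it.

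**Figure D4:**
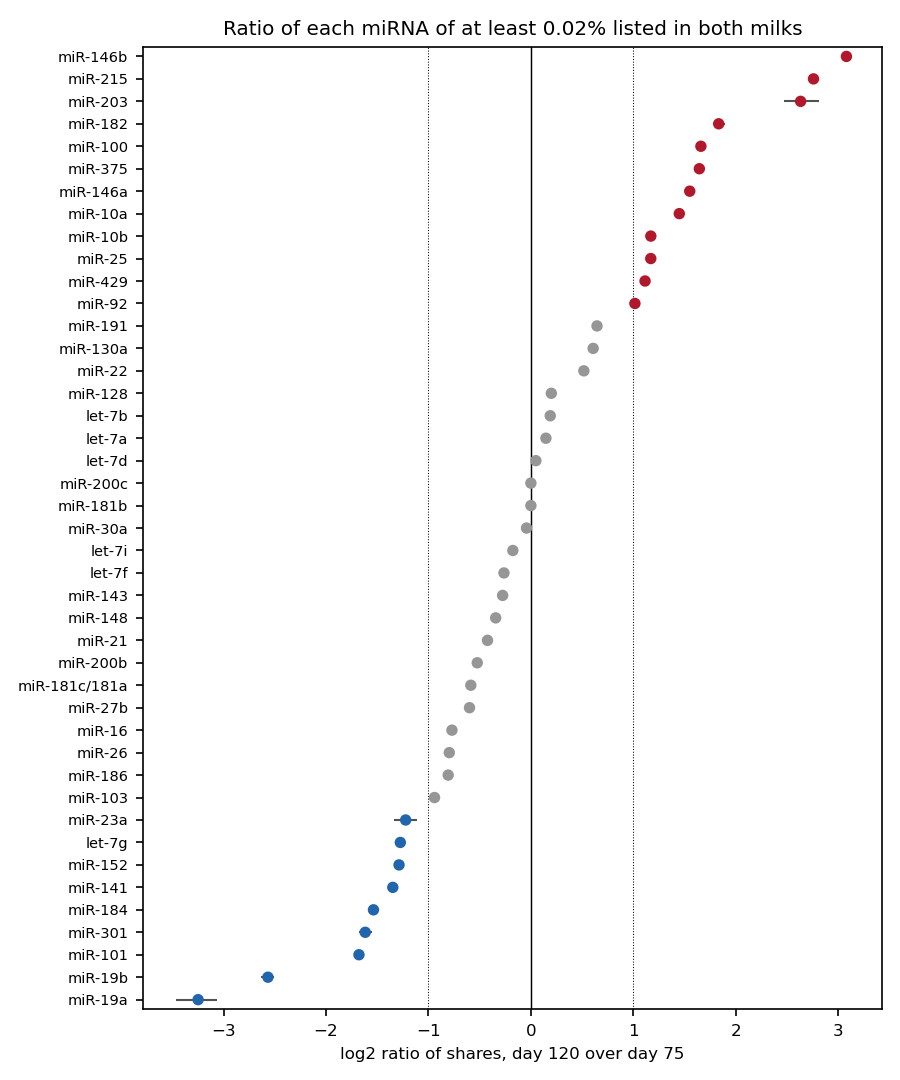
Points give the log2 ratio of the deposited shares, day 120 over day 75, for the 43 miRNAs of at least 0.02% in 1 milk that have an entry in both, and bars give the range that rounding to 3 decimals allows. Dotted lines mark 2-fold, with 12 miRNAs beyond it on the right, led by miR-146b, and 9 on the left, ending with miR-19a.

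The day 75 milk listed many more miRNAs than the day 120 milk. It listed 85 and the later milk 58, of which 57 were shared. The step thus lost 28 and gained 1, miR-29b, which was listed at 0. The difference lay almost wholly in scarce miRNAs, since 51 and 49 miRNAs reached 0.005%, and 34 and 9 entries were below it. Of the 28 lost, 8 were listed at 0 at day 75, 16 were from 0.001% to below 0.005% and 4 were at 0.005% or more. An entry of 0 was given to 11 miRNAs at day 75 and to 1 at day 120. The study's account of its libraries gives a smaller part of reads aligned to miRNAs for the later milk and names tRNA fragments as a contaminant of the earlier one. It ascribes some variability in the number of miRNAs among its milks to such fragments and to other experimental factors. The part of these in the number of entries was not tested here.

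miR-204 stood apart from the other losses. This miRNA, known from the pigment epithelium of the eye, held 1.63% at day 75, rank 10 of 85, and had no entry at day 120. It was at 0.279% on day 35 and 0.038% on day 175, and it was listed at 0 on day 250 and in the serum of day 120. The other 27 lost miRNAs summed to 0.049%. The 4 most abundant of them were miR-27a at 0.013%, miR-195 and miR-205a at 0.005% each, and miR-23b at 0.004%. miR-205a is an epithelial miRNA known from mammary progenitor cells. An absent entry at 1 day between 2 listed days can be a failed estimate as well as a low level, and the file does not tell these apart.

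Most of the lost miRNAs were not lost for good. Of the 28, 20 were listed again in the day 175 milk, 21 in the day 250 milk and 24 in at least 1 of them. Only 2, miR-204 and miR-1549, had been listed at day 35. The day 35 milk listed 48 miRNAs, all of them listed at day 75, and 46 of them were listed at day 120 as well. Of the 37 miRNAs listed at day 75 but not at day 35, 26 were absent again at day 120. In number of entries, day 75 was thus the odd profile among the first 3, and 4 miRNAs had an entry in day 75 milk alone of the 5 milk profiles.

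Set beside the day 35 milk, also of phase 2A, not every change at day 120 led to a level beyond the earlier range. Of the 15 higher miRNAs, 10 were above both the day 35 and the day 75 share, and 5 were not: miR-92 stood at 3.22% on day 35, miR-25 at 0.56%, miR-182 at 0.192%, miR-122 at 0.04%, and miR-203 at the same value as at day 120. Of the 15 lower miRNAs, 7 were below both. Another 7 were absent or at 0 on day 35 and so could not be, which leaves miR-141 as the 1 lower miRNA with a smaller measured share on day 35. It was at 0.344% on day 35, below its day 120 share, and at 4.96% on day 175.

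The phase labels allow a wider comparison, of the phase 2A milks of days 35 and 75 with the phase 2B milks of days 120 and 175. Of the 63 miRNAs that reached 0.005% in 1 of the 4, 16 were higher in both phase 2B milks than in either phase 2A milk (25.4%) and 7 were lower in both (11.1%). The split was 19 to 6 without miR-191, 12 to 9 without miR-191 and miR-184, and 13 to 11 with ratios centred on the mean log share. Among the 16 were miR-375 (2.41% and 2.63%, then 8.23% and 9.78%), miR-215 (0.03% and 0.017%, then 0.115% and 0.616%), miR-10b, miR-10a, miR-100, miR-429, miR-146a, miR-146b, miR-183 and miR-223. The remaining 6 were not among those at least 2-fold higher between days 75 and 120. One of these is miR-22, which was at 0.794% and 1.14% in this step, at 3.18% on day 175 and at 8.64% on day 250. Of the 16, miR-183, miR-223, miR-126 and miR-460 reached 0.005% only in a phase 2B milk, so the limit itself favoured them. miR-223 was at only 0.001% on day 175, against entries of 0 in both phase 2A milks. Of the 7 on the lower side, miR-1549 reached 0.005% only in a phase 2A milk.

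On the lower side of the phases stood miR-184, miR-204, miR-301, miR-16, let-7f, miR-1549 and the entry for miR-181c and miR-181a. miR-184 continued downwards, from 8.56% on day 120 to 1.45% on day 175 and 0.133% on day 250. miR-301 was at 0.036%, 0.046%, 0.015% and 0.017% over the 4 milks. For let-7f the nearest values of the phases were 6.45% and 6.04%, a small gap. Since each phase has 2 milks of different days, the phases cannot be told apart from the order of the days.

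**Figure D5:**
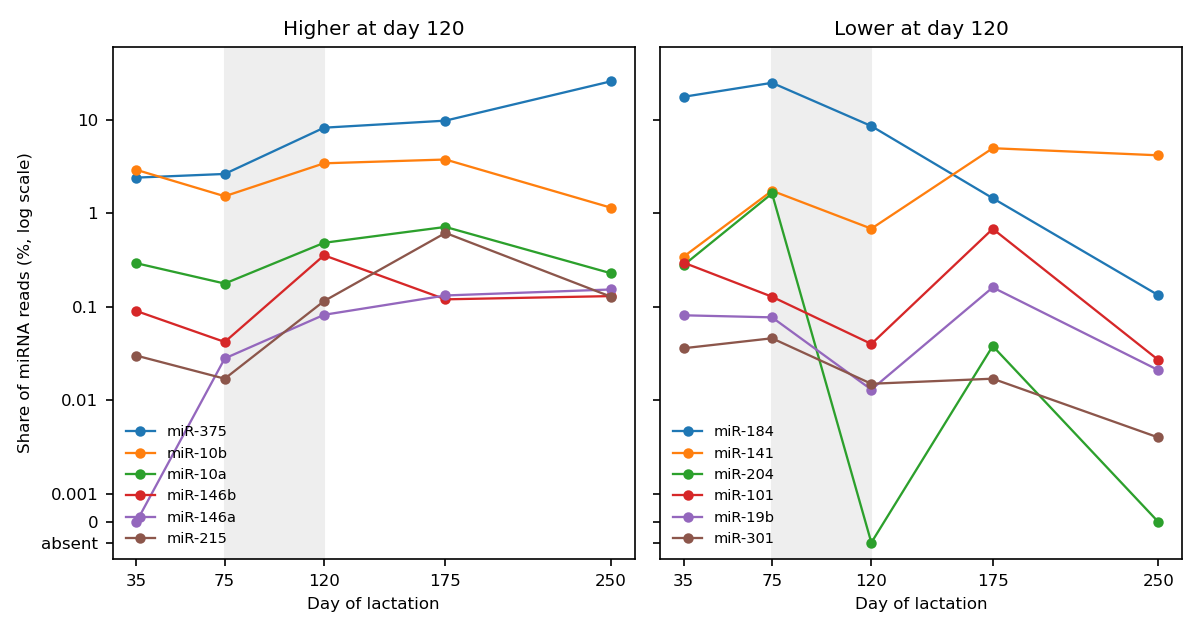
Lines join the shares of 12 miRNAs (percent of miRNA reads, log scale, with 0 and absent at marked positions) over the 5 milk profiles by day of lactation, and the shaded band marks the step from day 75 to day 120. miR-375 is higher at each later day and miR-184 lower at each day after day 75, whereas miR-146b peaks at day 120 and miR-141, miR-101 and miR-19b are higher again at day 175.

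In size, the step from day 75 to day 120 was like the one before it. The median absolute log2 ratio was 0.81 over 45 miRNAs, 1.75-fold, and the shares common to both milks summed to 72.7%. From day 35 to day 75 the median was 0.80 and the common share 78.3%, and from day 120 to day 175, within phase 2B, they were 1.47 and 56.0%. Without miR-191 the medians of the step before, of this step and of the one after it were 0.995, 0.874 and 0.919. With miR-184 left out too they were 0.944, 0.955 and 0.815. The steps share libraries and were not tested against each other. By common share, the day 120 milk was nearest to that of day 35 (81.7%), then to day 75 (72.7%), day 175 (56.0%) and day 250 (51.5%), with 21.6% for the serum of its own day and 30.8% for that of day 175. Of the common share, miR-191 alone made 40.4 points with day 35 and 28.0 points with day 75. That difference is wider than the one between 81.7% and 72.7%, so the order of day 35 and day 75 rests on miR-191. By median absolute log2 ratio the order was not the same: it was 0.80 to day 35, 0.81 to day 75, 1.47 to day 175 and 1.40 to day 250, and 1.64 and 1.27 to the serum of days 120 and 175.

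Because serum and milk can share miRNAs, the members were also sorted by the day 175 profiles, which play no part in the step and of which the milk column may combine a duplicate. Those with at least 0.005% in serum and at least 2-fold more there than in milk were called serum-rich, which held for 13 miRNAs. Of these, 9 reached 0.005% in the day 75 or day 120 milk, and 7 of the 9 were at least 2-fold higher at day 120 (miR-10b, miR-10a, miR-92, miR-215, miR-146a, miR-122 and miR-223) and 2 were lower (miR-125b and miR-23a). Of the other 46 miRNAs, 8 were higher and 13 lower. miR-122 and miR-223 reached 0.005% only at day 120 and miR-125b only at day 75. Of the 6 serum-rich miRNAs with 0.005% in both milks 5 were higher and 1 lower, and of the other 39 with it 7 were higher and 8 lower. Asking for 5-fold more in serum left 4 higher and 1 lower, and sorting by the day 120 profiles gave 7 higher and 4 lower. That last sorting uses the day 120 milk share, which is also part of the ratio, so it favours lower miRNAs by construction. In sum the serum-rich miRNAs held 3.01% of the day 75 milk and 6.64% of the day 120 milk. The most abundant of them, miR-10b and miR-92, were at 2.91% and 3.22% on day 35. Both were thus above their day 75 shares of 1.52% and 1.24% already then, so the sum is not a level first reached at day 120 for these.

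The 7 did not keep the proportions they have in serum. At day 120, the milk share as a percent of the serum share was 4.95 for miR-10b, 6.71 for miR-10a, 7.35 for miR-215 and 8.33 for miR-122. It was 26.7 for miR-223, 31.7 for miR-146a and 95.3 for miR-92. Markers of blood and other tissues, some of them in this set, were low in both milks: miR-451, the defining miRNA of red blood cells, was at 0.002% in both milks and at 0.041% in the serum of day 120. miR-144, of the same locus, went from an entry of 0 to no entry. Of the 4 white blood cell miRNAs, miR-142, miR-150 and miR-155 had no entry in either milk, and miR-223 was the one that went from 0 to 0.008%. Liver miR-122 was at 0.001% and 0.008% in milk and 0.096% in serum, and rounding allows a milk ratio between 5 and 17. miR-126, of endothelium and platelets, was at 0.001% and 0.002% in milk and 0.034% in serum. miR-133a, of muscle, was listed at 0 and then at 0.004%, with 0.008% in serum. The part of serum in these milk values was not tested.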

How the data were processed

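Pooled milk was centrifuged to skim milk by the authors, who isolated small RNA with a mirVana kit, had it sequenced on an Illumina HiSeq and matched the cleaned reads to miRBase with miRanalyzer. Serum RNA was extracted with a different kit (miRNeasy Serum/Plasma). The part of the kit in the differences between milk and serum was not tested. The deposited values are the percent of all annotated miRNA reads of a library, rounded by the authors to 3 decimals, with 1 column for each of 7 profiles and 0 unused columns. Read counts were not used here.

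From these percentages, shares, ranks, differences in points, ratios with their rounding limits and log2 ratios (0.001% added, at least 0.005% in the higher milk, 2-fold) were computed, with absent entries as 0 and no test. Python 3.11.15, numpy 2.4.6, pandas 2.3.3 and matplotlib 3.10.9 were used, and the code was tested on simulated data. Named miRNAs were the 10 leading of each milk, the 10 largest ratios each way at 0.02% or more, the gained one, the 5 most abundant lost ones and members of 23 lists. The members and lists were chosen with earlier results of these data known. Alternatives were other limits, pseudocounts and scalings. The series record mentions a duplicate of day 175, and whether the day 175 column combines it is not known.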

Additional observations from a re-analysis of the deposited data

How the results depend on the processing

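The spread between pools is unknown, so none of these alternatives shows how a second pool would vary. Shares sum to a whole: before 0.001% is added, every other log2 ratio is higher by 0.36 without miR-191 and lower by 0.01 without miR-191 and miR-184. None of the 30 miRNAs past 2-fold changed sign under the 3 scalings tried, but without miR-191 only 11 of the 15 lower ones stayed past 2-fold, miR-141, let-7g, miR-152 and miR-23a falling short. Of the miRNAs within 2-fold, miR-30a, miR-148, let-7f, miR-143 and let-7i changed sign without miR-191, all with log2 ratios of at most 0.34 in size, and let-7d changed sign with centred log ratios.

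Counting only entries of at least 0.001% gave 3 gained miRNAs. At 0.005% day 75 listed 51, with 6 lost and 4 gained. A 3-fold limit left 9 higher and 7 lower, and a limit of 0.001% in the higher milk gave 32 lower. Asking for 0.005% in both milks, an alternative chosen after seeing the data like the rounding limits with 0.001% added, left 12 higher and 9 lower, and 5 higher and 1 lower of the serum-rich miRNAs. At day 120 the first miRNA held 15.2% without miR-191 and 17.5% without miR-191 and miR-184, the effective number by Shannon was 13.9 and 13.5, and that by Simpson 10.1 and 9.52. Asking for 5-fold more in serum left 4 serum-rich miRNAs higher and 1 lower, and dropping miR-191 gave 1 lower. Sorting by the day 120 libraries, whose milk share is also part of the ratio, gave 4 lower. Centred log ratios gave 11 miRNAs lower in both phase 2B milks. Higher and lower miRNAs numbered 17 and 12 without miR-191, and 16 and 19 without miR-191 and miR-184. In all, 52 alternative values of such summary results stayed within 1.5 times the reported value and 20 did not. Adding 0.01% brought the log2 ratio of miR-203 to 1.45 and that of miR-19a to -1.78. Why each value moved was not tested beyond the construction of the alternative.

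No paired analysis was possible because each day has 1 pooled milk library.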

Other observations

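Of the 4 miRNAs in the list of those first described outside placental mammals that had an entry in either milk, none reached 0.005%. miR-460 was listed at 0 at day 75, at 0.002% at day 120 and at 0.013% at day 175. miR-1549 was at 0.032% on day 35, at 0.002% on day 75 and absent on day 120. miR-1546 and miR-1547 were at 0.001% on day 75 and absent on day 120.

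miR-143, a miRNA of smooth muscle and stroma, was at 1.39% on day 75 and 1.14% on day 120, and its partner miR-145, made from the same transcript in other mammals, was listed at 0 and then absent. miR-26 was at 1.45% and 0.836%, miR-103 at 0.238% and 0.124%, and miR-186 at 0.07% and 0.04%, all lower by less than 2-fold. miR-130a was at 0.063% and 0.096%, while miR-301, which shares its seed, was lower. miR-16 was at 0.145% and 0.085% and its relative miR-15a at 0.01% and 0.014%. miR-221 was at 0.006% and 0.008%, and miR-222a at 0.002% in both.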
